A study of Mus musculus with 20 samples.

Results

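Granzymes and perforin are the cargo of the cytotoxic granule, the secretory lysosome with which killer lymphocytes destroy target cells. Perforin (Prf1) forms pores in the target membrane, and the granzymes, a family of serine proteases, pass through and cleave proteins inside the target. The 6 genes of this set that the deposited tables list were taken by symbol: Gzma, Gzmb, Gzmk, Gzmc, Gzmm and Prf1. They are 6 of the 25933 genes listed in any table and of the 12289 listed in every table, and all 6 passed the filter on low values in all 4 comparisons. Natural intraepithelial lymphocytes (IELs) of the TCRαβ+CD8αα+ kind live between the epithelial cells of the gut and are known for high levels of granzyme transcripts at rest.

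The libraries are bulk RNA-seq of sorted mouse cells. From steady-state Bcl6-RFP/RFP reporter mice, in which red fluorescent protein (RFP) reports Bcl6 transcription, CD8αα+ αβ IELs of the small intestine were sorted as RFP+CD160+ (3 libraries) or RFP-CD160- (3 libraries). Whole CD8αα+ αβ IELs of the small intestine came from steady-state Bcl6fl/fl Cd8cre, Prdm1fl/fl Cd8cre and Tcf7fl/fl Cd8cre mice, and from littermates carrying the same floxed alleles without Cre (2 libraries in each group). Prdm1 encodes the transcription factor BLIMP1, Tcf7 encodes TCF1, and Bcl6 encodes BCL6. The comparisons address how each factor bears on effector differentiation of these cells. Cd8cre was in every knockout and in no littermate, so its own effect and the loss of the gene cannot be told apart. Another 2 libraries are titled LI. Their labels give the same reporter genotype and the small intestine, but no sort gate, so they are given library by library and enter no test. The ages of the mice and whether each library came from its own mouse are not stated in the labels, so the p-values measure only the spread between these libraries, which may be technical.

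Depth, as recovered from the tables, was 14524000 to 17342350 reads in the sorted reporter libraries, 22506000 and 29978150 in the LI libraries and 22090000 to 48206386 in the knockout experiments (FPKM tables: estimates from the size of 1 read). Values are FPKM (reads scaled to exon length and to depth) in the reporter, LI and Bcl6 tables. They are reads divided by a size factor in the Prdm1 and Tcf7 tables, called scaled reads below, so levels of different genes are compared there only after division by exon length. In the FPKM tables Cd8a read 281 to 946 FPKM and Cd3e 149 to 246 FPKM, while Cd8b1, the partner chain of CD8αβ T cells, read 0.720 to 2.16 FPKM. Trac, Trdc and the other receptor constant segments were not in the tables, so αβ and γδ T cells could not be separated on their defining genes. Of the targeted genes, Prdm1 fell to 8.94% and Tcf7 to 50.7% of the littermate mean in their own knockouts. Bcl6 read 0.550 and 0.638 FPKM in the Bcl6 knockout and 0.772 and 0.735 FPKM in its littermates, below the filter of the test. The exons removed are not stated in the labels, and reads outside them say nothing about the deletion.

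Prf1 (ENSMUSG00000037202) lies on chromosome 10, plus strand, at 61297833 to 61304680 of GRCm38, the assembly also called mm10 (GENCODE vM21 annotation throughout). Gzmm (ENSMUSG00000054206) lies on the same chromosome and strand at 79689020 to 79695261. Gzma (ENSMUSG00000023132) and Gzmk (ENSMUSG00000042385) share a locus on the minus strand of chromosome 13, at 113093825 to 113100981 and at 113171608 to 113225908. Gzmb (ENSMUSG00000015437) and Gzmc (ENSMUSG00000079186) share a locus on the minus strand of chromosome 14, at 56258838 to 56262260 and at 56231441 to 56234656. The Gzmb locus also holds the close relatives Gzmd, Gzme, Gzmf, Gzmg and Gzmn. Of these 5, only Gzmn was listed, in the Tcf7 table alone, at 7.61 to 19.9 scaled reads and below the filter. Of the 50-base stretches of Gzmc transcripts, 4.14% also occur in Gzmd, Gzme or Gzmg, so some Gzmc reads cannot be assigned with certainty. No such stretch of the other 5 genes occurs in another gene.

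The upstream sequence of 4 of the genes is shown because Gzma, Gzmb and Prf1 moved together below while Gzmm did not. Each line gives the 240 bases from 250 to 11 bases before the RefSeq transcript start (GRCm38.p6), 5′ to 3′ on the gene's strand, and capitals mark matches to the motifs listed after it.
Gzma: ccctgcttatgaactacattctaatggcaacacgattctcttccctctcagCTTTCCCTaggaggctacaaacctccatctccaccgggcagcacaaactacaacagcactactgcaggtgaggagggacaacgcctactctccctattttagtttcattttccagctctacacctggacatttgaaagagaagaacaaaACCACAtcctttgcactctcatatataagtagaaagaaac
Gzmb: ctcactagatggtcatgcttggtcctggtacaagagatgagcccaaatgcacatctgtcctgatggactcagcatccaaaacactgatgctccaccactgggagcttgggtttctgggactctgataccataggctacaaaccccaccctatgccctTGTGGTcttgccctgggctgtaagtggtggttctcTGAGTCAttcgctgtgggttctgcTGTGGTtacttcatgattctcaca
Prf1: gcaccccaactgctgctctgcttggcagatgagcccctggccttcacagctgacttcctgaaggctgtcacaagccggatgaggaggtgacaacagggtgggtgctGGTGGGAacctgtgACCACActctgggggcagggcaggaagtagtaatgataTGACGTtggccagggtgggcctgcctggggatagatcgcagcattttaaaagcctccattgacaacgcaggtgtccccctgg
Gzmm: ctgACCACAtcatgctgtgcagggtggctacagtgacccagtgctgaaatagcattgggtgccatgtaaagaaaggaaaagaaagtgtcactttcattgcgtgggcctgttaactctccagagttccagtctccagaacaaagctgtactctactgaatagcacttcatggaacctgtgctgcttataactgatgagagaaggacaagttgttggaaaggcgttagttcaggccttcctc
These windows are chr13:113100992-113101231 for Gzma, chr14:56262345-56262584 for Gzmb, chr10:61297586-61297825 for Prf1 and chr10:79688770-79689009 for the upstream start of Gzmm. Core motifs of 7 factor families were searched on both strands, and none of the printed matches overlap. The letters and the share of 32851 RefSeq windows of this length that hold each were CTTTGA for TCF/LEF factors (13.5%), AGNGAAAG for BLIMP1 (7.02%), TTCCTNGAA for BCL6 (1.25%), TGTGGT for RUNX factors (13.6%), GGTGNGA for T-box factors (14.5%), TGANTCA for AP-1 (6.58%) and TGACGT for CREB-type factors (6.09%). Each of the 4 windows held a RUNX match, and Gzmb held 2. The Gzma window held the BLIMP1 letters on the reverse strand, 199 to 192 bases before the start. The Gzmb window held an AP-1 match 58 to 52 bases before the start, and the Prf1 window held a T-box and a CREB-type match. The TCF/LEF and BCL6 letters were in none of these 4 windows. Of the windows searched but not printed, that of Gzmk held the TCF/LEF letters 88 to 83 bases before the start, and T-box matches. The Gzmc window held RUNX and CREB-type matches. That of the other Gzmm start held T-box matches and none for RUNX. A match is a run of letters and not a binding site.

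RFP+CD160+ cells held far less of 5 of the 6 transcripts than RFP-CD160- cells. Gzma was 128-fold lower, Gzmk 91.5-fold, Gzmb 37.5-fold, Prf1 9.89-fold and Gzmc 6.42-fold, each as a ratio of mean FPKM. All 5 passed the test as lower in RFP+CD160+ cells, where 21.6% of the 9717 genes tested were lower and 16.4% higher (38% in either direction). The 1591 higher and 2098 lower genes became 2024 and 1744 after quantile normalization and 1932 and 1739 with equal totals, and the same 5 of the 6 passed under both. The 6 genes had a median log2 fold change of -3.49, against -0.03 over all genes tested. In these bulk samples, fewer expressing cells and less RNA per cell cannot be told apart.

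Gzma encodes granzyme A, a protease that cuts after basic residues. It read 73.7, 90.5 and 166 FPKM in the RFP+CD160+ libraries and 15579, 13193 and 13618 FPKM in the RFP-CD160- libraries. In each RFP-CD160- library it ranked 1 by FPKM among the 12975 listed genes, and the groups lay far apart. The groups did not overlap for any of the 5 genes, as for 28.5% of the genes tested in that direction. The change of Gzma was -7.07 ± 0.26 (SE, n = 3 against 3) on the log2 scale (limma adjusted p = 1.25e-06), ranking 1 by size among the genes tested. The added 1 FPKM shrinks the change of genes near 0 in a group, so this rank holds for this scale only.

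Gzmb encodes granzyme B, the aspartate-cleaving granzyme that activates caspases. Its FPKM values were 116, 137 and 267 in RFP+CD160+ cells and 7302, 6209 and 5986 in RFP-CD160- cells. It ranked 2 in every RFP-CD160- library, and RFP+CD160+ replicate 3 was the highest of its group for both Gzma and Gzmb. It changed by -5.31 ± 0.27 (SE) on the log2 scale (limma adjusted p = 4.80e-06).

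Prf1 was far below both granzymes in either population. It read 3.88, 5.91 and 3.14 FPKM in RFP+CD160+ cells and 39.3, 42.1 and 46.4 FPKM in RFP-CD160- cells. RFP+CD160+ replicate 3, the highest of its group for Gzma and Gzmb, was the lowest for Prf1. Its change was -3.07 ± 0.17 (SE) on the log2 scale (limma adjusted p = 6.55e-06).

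Gzmk encodes granzyme K, a tryptase like granzyme A. It read 0.288, 0.149 and 0.128 FPKM in RFP+CD160+ cells, which are 6, 3 and 3 recovered reads, and 14.2, 22.0 and 15.5 FPKM in RFP-CD160- cells. Gzmk thus passed the filter only through RFP-CD160- cells and could be called only as lower. Per read sequenced the ratio was 92.4 (95% exact interval 52.7 to 179, counting error only), from 12 against 1207 reads. The log2 fold change of -3.92 ± 0.15 (SE; limma adjusted p = 1.45e-06) understates this, since the added 1 FPKM exceeds the lower values.

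Gzmc, one of the granzymes of the Gzmb cluster, read 2.46, 1.23 and 1.99 FPKM in RFP+CD160+ cells and 10.2, 14.8 and 11.5 FPKM in RFP-CD160- cells. The groups did not overlap, with a change of -2.19 ± 0.18 (SE) on the log2 scale (limma adjusted p = 5.06e-05). Gzmm, whose product granzyme M prefers methionine and leucine at the cut site, read 1.63, 2.01 and 0.885 FPKM in RFP+CD160+ cells and 1.07, 1.47 and 1.76 FPKM in RFP-CD160- cells. These ranges overlapped. Its log2 fold change was 0.03 (95% interval -0.40 to 0.45, limma adjusted p = 0.917). With 1 FPKM added to values this low, a fall of the size seen in the other 5 genes could not have shown on this scale.

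The LI libraries read 91.2 and 81.8 FPKM for Gzma, 163 and 153 FPKM for Gzmb and 5.59 and 4.28 FPKM for Prf1. All 6 values lay inside the range of the RFP+CD160+ libraries. Gzmc (2.46 and 2.04 FPKM) and Gzmm (1.54 and 1.21 FPKM) did too, and Gzmk (0.336 and 0.479 FPKM, 14 and 15 reads) lay just above it. Prdm1 read 0.728 and 0.660 FPKM in LI and 0.826 to 1.27 FPKM in RFP+CD160+ libraries, and Tcf7 read 261 and 272 FPKM against 227 to 245 FPKM. These LI values lay below the RFP+CD160+ range for Prdm1 and above it for Tcf7. The LI libraries stood further apart from RFP+CD160+ libraries in other genes, Cd160 and Cd8a among them. Itgae read 183 and 174 FPKM in LI against 334 to 370 FPKM, and Cst7 66.8 and 64.9 FPKM against 185 to 202 FPKM. Cd160 read 135 and 126 FPKM in LI, between the RFP+CD160+ (231 to 242 FPKM) and RFP-CD160- (61.9 to 69.8 FPKM) libraries. Cd8a read 297 and 281 FPKM in LI, below both (542 to 612 and 871 to 946 FPKM). Whether these libraries were normalized together is not given in the sources used here, and they were not tested against each other.

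**Figure D1:**
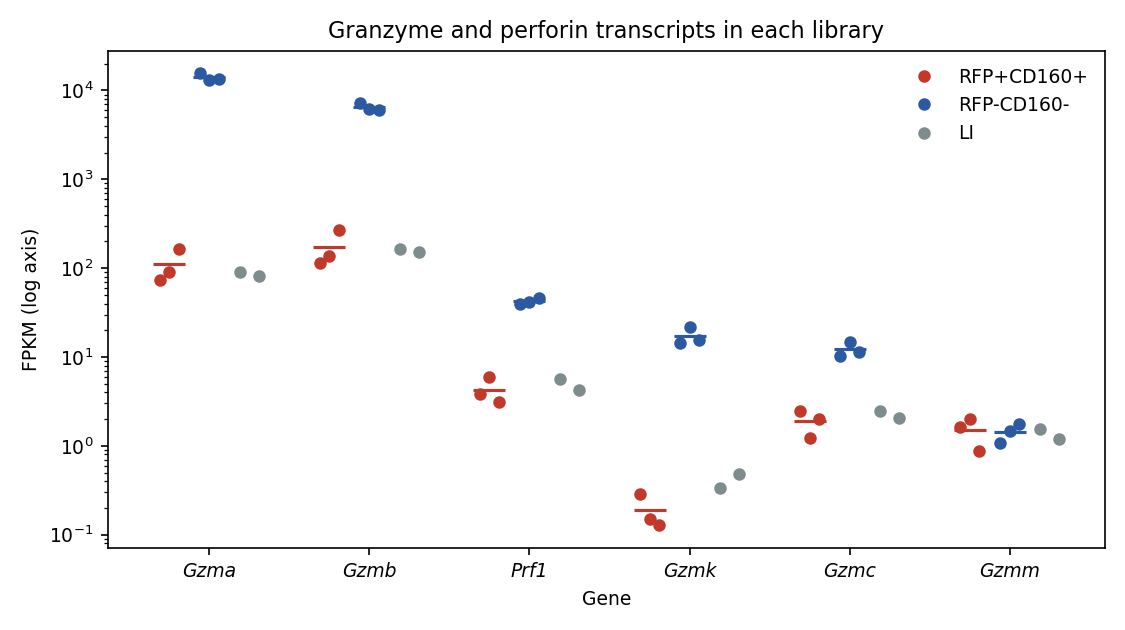
FPKM (log axis) of the 6 genes in each RFP+CD160+ (red), RFP-CD160- (blue) and LI (grey) library; each point is a library and each bar the mean of 3. The blue points lie above the red ones for every gene but Gzmm, by the largest distance for Gzma.

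Other cells in the sort were checked on their markers. The NK cell and ILC list (8 of 11 genes listed) summed to 34.4 to 39.8 FPKM in RFP+CD160+ libraries and 29.1 to 49.8 FPKM in RFP-CD160- libraries. Of its 3 tested genes, Klrb1c was higher (13.0 to 14.4 against 5.71 to 7.40 FPKM) and Gata3 lower (11.2 to 11.8 against 12.5 to 14.1 FPKM) in RFP+CD160+ cells. Ncr1 was listed at 0 in all RFP-CD160- libraries. The sums of this list overlapped between the populations. The myeloid list (8 of 13 listed) summed to 47.4 to 50.4 FPKM in RFP+CD160+ and 59.7 to 76.3 FPKM in RFP-CD160- libraries, with 1 of 4 tested genes higher (Bst2) and 3 lower. Itgam (0.0274 to 0.0825 against 1.21 to 1.42 FPKM) and Itgax (11.1 to 15.5 against 33.1 to 49.6 FPKM), genes of integrins also carried by some T cells, were among the lower ones. The mast cell list (3 of 11 listed) summed to 3.13 to 3.98 and 5.00 to 5.75 FPKM, with its 1 tested gene, Cpa3, lower and Mcpt2 at 0 in RFP+CD160+ libraries. The myeloid and mast cell sums were thus both lower in RFP+CD160+ cells, without overlap, as the granzymes were. The B cell list (5 of 8 listed) summed to 14.0 to 15.5 and 17.3 to 20.4 FPKM, with its 1 tested gene, Cd79b, lower. The CD8αβ or CD4 T cell list (7 of 7 listed) summed to 5.47 to 8.01 and 2.33 to 2.90 FPKM, with 1 of 2 tested genes, Cd40lg, higher. Of the T cell list, 3 of 6 tested genes were lower in RFP+CD160+ cells, Cd8a among them (542 to 612 against 871 to 946 FPKM). The sum of that list (6 of 9 listed) was also lower there, at 1462 to 1581 against 1974 to 2056 FPKM. The epithelial and Paneth cell list summed to 112 to 157 FPKM in RFP+CD160+ libraries and 123 to 358 FPKM in RFP-CD160- libraries, with 1 of 9 tested genes higher and 2 lower and Lgr5 at 0 in RFP+CD160+ libraries. The part of these lists in the granzyme values was not tested.

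Deletion of Prdm1 lowered Gzma, Gzmb, Gzmk, Gzmc and Prf1, and Gzmm did not pass the test. Gzma was 23.8-fold lower than in littermates, Gzmk 23.4-fold, Gzmb 12.9-fold, Gzmc 11.3-fold and Prf1 7.17-fold, as ratios of mean scaled reads. Of the 10969 genes tested, 2.54% were lower and 4.29% higher (6.84% in either direction). The median log2 fold change was -3.67 for the 6 genes and -0.04 over all genes tested.

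Gzma read 267146 and 277468 scaled reads in Prdm1fl/fl littermates and 15701 and 7212 in Prdm1fl/fl Cd8cre mice (log2 fold change -4.68 ± 0.34, SE, n = 2 against 2; limma adjusted p = 0.00252). Gzmb read 178556 and 175775 in littermates and 18148 and 9309 in knockouts (-3.77 ± 0.30; limma adjusted p = 0.00265). Prf1 read 4218 and 3220 in littermates and 629 and 408 in knockouts (-2.86 ± 0.22; limma adjusted p = 0.00265). The groups were apart for each of the 3 genes, as for 30.6% of the genes tested in that direction, and knockout library 1 was above knockout library 2 each time.

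Gzmk read 1100 and 951 scaled reads in littermates and 68.9 and 18.7 in knockouts (log2 fold change -4.79 ± 0.54, SE; limma adjusted p = 0.00586). Gzmc read 614 and 703 in littermates and 79.5 and 37.4 in knockouts (-3.57 ± 0.35; limma adjusted p = 0.00391). Gzmm read 64.1 and 72.5 in littermates and 66.7 and 66.5 in knockouts. The Gzmm ranges overlapped, and its log2 fold change was -0.03 (95% interval -0.77 to 0.71; limma adjusted p = 0.967). That sign turned under other scalings, to 0.02 with equal totals.

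The 2 knockout libraries differed in the same direction for the deleted gene and its granule genes. Prdm1 itself read 640 and 362 scaled reads, a ratio of 1.77 of library 1 to library 2. The same ratio was 2.18 for Gzma, 1.95 for Gzmb, 3.68 for Gzmk, 2.12 for Gzmc, 1.54 for Prf1 and 1.00 for Gzmm. With 2 libraries this is a description only. The epithelial and Paneth cell list summed to 19285 to 29512 scaled reads in knockouts and 16040 to 16643 in littermates, with 6 of 13 tested genes higher and 0 lower. Krt8 (log2 fold change 2.17), Vil1 (1.62) and Krt18 (1.77), epithelial structural genes, were the furthest past the test. The myeloid list (10 of 13 listed) summed to 7527 to 7708 in knockouts and 11726 to 13915 in littermates, with Siglech at 0 in littermates and 2 of 6 tested genes lower, Itgam (-3.49) and Itgax (-0.86). The T cell list (6 of 9 listed) summed to 176818 to 189594 in knockouts and 207040 to 235531 in littermates. Of its 6 tested genes limma called 0 (2 at an unadjusted p under 0.05), edgeR 0 and DESeq2 1. The γδ T cell list (2 of 9 listed) summed to 97.5 to 124 and 22.8 to 25.9. Its 1 tested gene was called by edgeR and DESeq2 but not by limma. The myeloid and T cell sums were thus lower and the epithelial and γδ T cell sums higher where the granzymes were lower, without overlap. Their part in the granzyme values was not tested.

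Deletion of Tcf7 moved Gzma, Gzmb and Gzmc the opposite way, by far less. Gzma was 1.43-fold, Gzmb 1.46-fold and Gzmc 1.57-fold higher than in littermates, and these 3 of the 6 genes passed the test. Of the 15210 genes tested, 1.49% were higher and 1.23% lower (2.72% in either direction). Gzma read 343844 and 321734 scaled reads in Tcf7fl/fl littermates and 489736 and 463276 in Tcf7fl/fl Cd8cre mice (log2 fold change 0.52 ± 0.06, SE, n = 2 against 2; limma adjusted p = 1.40e-04). Gzmb read 191920 and 178379 in littermates and 273199 and 266458 in knockouts (0.54 ± 0.05; limma adjusted p = 5.58e-05). Gzmc read 623 and 538 in littermates and 829 and 990 in knockouts (0.65 ± 0.12; limma adjusted p = 0.0105).

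The other 3 did not pass. Gzmk read 1056 and 903 scaled reads in littermates and 1266 and 1199 in knockouts (log2 fold change 0.33, 95% interval 0.12 to 0.55; limma adjusted p = 0.120). Prf1 read 4629 and 4233 in littermates and 5326 and 4931 in knockouts (0.21, 95% interval 0.07 to 0.35; limma adjusted p = 0.130). Gzmm read 79.9 and 91.6 in littermates and 79.6 and 125 in knockouts, with overlapping ranges (limma adjusted p = 0.845). For the other 5 genes the groups did not overlap, with knockouts above littermates, as they did for 20.9% of the genes tested. These calls depend on how the spread was estimated. Without a mean-variance trend 9 genes and none of the 6 passed, while edgeR and DESeq2 on recovered reads each called 3 of the 6. Gzmc was not called without knockout replicate 2 (limma adjusted p = 0.163). The epithelial and Paneth cell list summed to 32861 to 33829 scaled reads in knockouts and 26082 to 26495 in littermates, with 6 of 13 tested genes higher and 0 lower, Lyz1 (log2 fold change 0.86), Itln1 (0.84) and Muc2 (0.93) furthest past the test. The CD8αβ or CD4 T cell list (7 of 7 listed) summed to 1387 to 1406 and 759 to 980, with 2 of 7 tested genes higher, Cd5 (1.60) and Cd6 (0.94). The sums of both lists were higher in the knockouts, without overlap, as Gzma and Gzmb were. The mast cell sum (279 to 318 against 174 to 211 scaled reads) was also higher without overlap. So were the B cell (1509 to 1534 against 1223 to 1377) and γδ T cell (79.6 to 115 against 62.9 to 79.0) sums. In these lists limma called 0 of the 1, 4 and 1 tested genes (1, 1 and 0 at an unadjusted p under 0.05). The myeloid list (9 of 13 listed) summed to 28767 to 28890 and 26769 to 26893, with 1 of 6 tested genes higher, Itgam (0.63). The NK cell and ILC list (10 of 11 listed) summed to 7284 to 7301 and 8290 to 8367, with Il22 at 0 in knockouts and 1 of 4 tested genes lower, Klre1 (-0.67). The part of these lists in the granzyme values was not tested.

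Deletion of Bcl6 left none of the 6 genes past the test, in a fit that called 0.418% of 9573 genes (0.387% as lower). At an unadjusted p under 0.05 in limma the number of the 6 genes was also 0, and none passed in any of the 11 alternatives. Gzma read 14675 and 12931 FPKM in Bcl6fl/fl littermates and 18282 and 19581 FPKM in Bcl6fl/fl Cd8cre mice, without overlap (log2 fold change 0.46, 95% interval -0.08 to 0.99; limma adjusted p = 0.914). Gzmb read 4989 and 4675 FPKM in littermates and 5459 and 4089 FPKM in knockouts (-0.03, 95% interval -0.54 to 0.48; limma adjusted p = 0.989). Prf1 read 71.1 and 76.2 FPKM in littermates and 81.0 and 67.6 FPKM in knockouts (0.01, 95% interval -0.37 to 0.38; limma adjusted p = 0.997). For Gzmb and Prf1 the knockout libraries lay on either side of the littermates. Gzma ranked 1 in every library of this experiment. Quantile normalization therefore made its values equal by construction, and that alternative could not call it.

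Gzmk read 12.6 and 14.1 FPKM in littermates and 16.0 and 14.3 FPKM in knockouts (log2 fold change 0.17; limma adjusted p = 0.949). Gzmc read 8.61 and 10.7 FPKM in littermates and 12.6 and 8.52 FPKM in knockouts (0.10; limma adjusted p = 0.975). Gzmm read 1.62 and 1.01 FPKM in littermates and 1.05 and 0.449 FPKM in knockouts (-0.41; limma adjusted p = 0.946). Only Gzma and Gzmk were apart between the groups, both with knockouts higher, as 19% of the genes tested were. The signs for Gzmb, Gzmc and Prf1 turned when single libraries were left out. The epithelial and Paneth cell list summed to 234 to 265 FPKM in knockouts and 382 to 414 FPKM in littermates, with 3 of 13 tested genes lower. The myeloid (76.0 to 95.6 against 66.4 to 68.7 FPKM) and mast cell (4.96 to 7.27 against 4.24 to 4.36) sums were higher in knockouts, without overlap. So was the T cell sum (2840 to 3138 against 2689 to 2769 FPKM). Of their 4, 1 and 6 tested genes limma called 0 (1, 0 and 0 at an unadjusted p under 0.05). The part of these lists in the granzyme values was not tested. A miss of the threshold with 2 libraries a group does not show that Bcl6 loss had no effect.

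**Figure D2:**
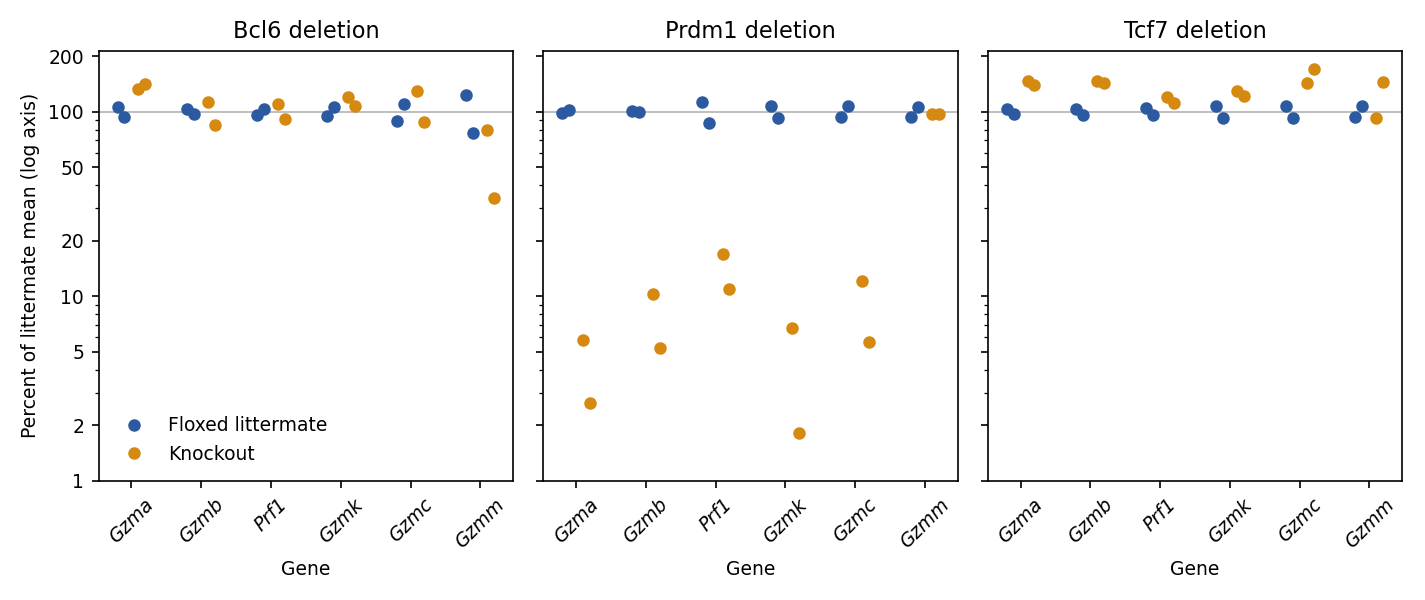
Level of each gene in each knockout library (orange) and littermate library (blue) as a percentage of its littermate mean (log axis), for the Bcl6, Prdm1 and Tcf7 deletions. In the Prdm1 panel 5 genes lie between 1 and 20 percent while Gzmm lies with its littermates.

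The differences between knockout effects were tested directly, over 8 libraries for each pair. The Prdm1 effect differed from the Bcl6 effect for Gzma, Gzmb, Gzmk, Gzmc and Prf1, by -2.87 (Prf1) to -5.13 (Gzma) on the log2 scale, and 3.5% of 9315 genes passed that test (1.44% with a negative difference). It differed from the Tcf7 effect for the same 5 genes, by -3.07 (Prf1) to -5.20 (Gzma), where 9.47% of 10841 genes passed (4.28% negative). Gzmm passed neither (limma adjusted p = 0.721 and 0.773). Gzmk and Gzmc passed the filter of the Prdm1 experiment only through its littermates, which limits both tests for them. Between the Tcf7 and Bcl6 effects none of the 6 genes passed in limma, and 0.48% of 9370 genes did. At an unadjusted p under 0.05 there was 1 of the 6, Gzmb, with a difference of 0.58 (95% interval 0.15 to 1.00; unadjusted p = 0.0140, limma adjusted p = 0.512), so the rise of Gzmb after Tcf7 loss was not shown to differ from its value after Bcl6 loss.

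**Figure D3:**
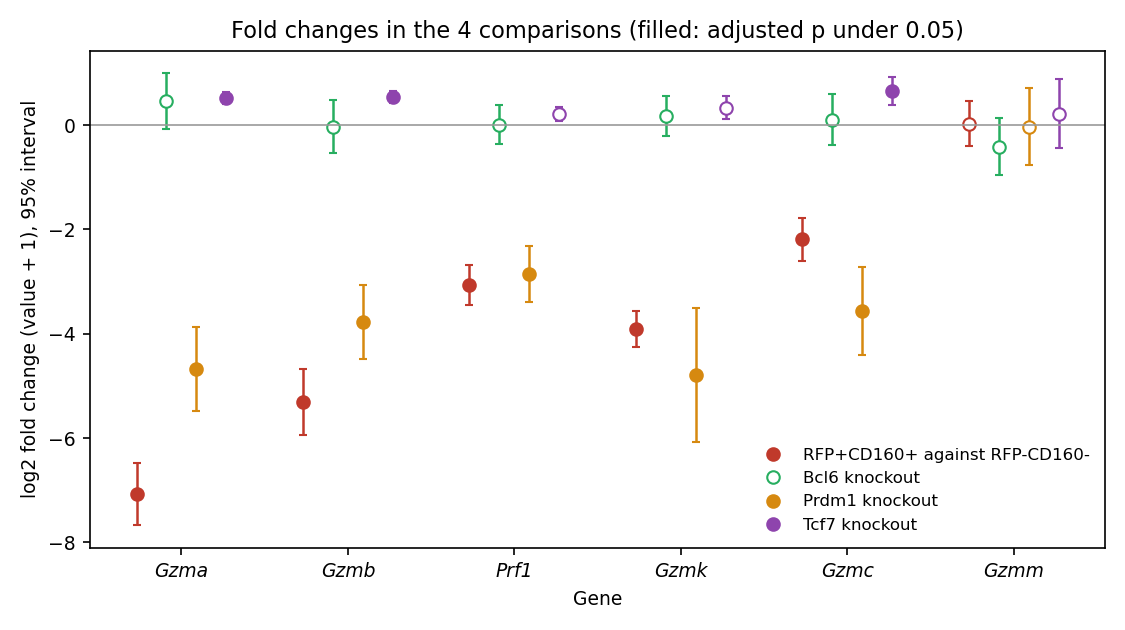
log2 fold change (value + 1) of each gene in the 4 comparisons with 95% intervals from limma; filled points have an adjusted p under 0.05. The red (RFP+CD160+ against RFP-CD160-) and orange (Prdm1 knockout) points lie well below 0 for 5 genes, and every point of Gzmm is open.

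Gzma and Gzmb did not fall by equal amounts, so their ratio moved. Per length of exon, Gzma exceeded Gzmb in RFP-CD160- cells, with ratios of 2.13, 2.12 and 2.27. The order was inverted in RFP+CD160+ cells (0.637, 0.659 and 0.623) and in the LI libraries (0.560 and 0.535). The groups were apart, at the smallest p that an exact two-sided permutation test of 3 against 3 can give (p = 0.1). The RFP+CD160+ ratios spanned 0.623 to 0.659 although Gzma itself spanned 73.7 to 166 FPKM. The ratio was 2.14 and 2.25 in Prdm1fl/fl littermates and 1.23 and 1.11 in Prdm1 knockouts, and 2.94 and 2.77 in Bcl6fl/fl littermates and 3.35 and 4.79 in Bcl6 knockouts. Both pairs of groups were apart, at the smallest exact permutation p that 2 against 2 allow (p = 0.333). In the Tcf7 experiment it was 2.56 and 2.57 in littermates and 2.56 and 2.48 in knockouts.

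Gzmb also exceeded Prf1 by less where both were low. Per length, the Gzmb to Prf1 ratio was 23.2 to 85.0 in RFP+CD160+ cells and 129 to 186 in RFP-CD160- cells. It was 41.0 to 51.9 in Prdm1 knockouts and 76.2 to 98.2 in their littermates. In the Tcf7 experiment it was 92.3 and 97.2 in knockouts and 74.6 and 75.8 in littermates. The Gzma and Gzmb share of all FPKM was 7.32 to 8.27% in RFP-CD160- libraries and 0.0793 to 0.180% in RFP+CD160+ libraries. Of all scaled reads, they made up 1.27 and 1.37% in Prdm1fl/fl littermates and 0.102 and 0.0527% in Prdm1 knockouts, a share that is not per length.

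**Figure D4:**
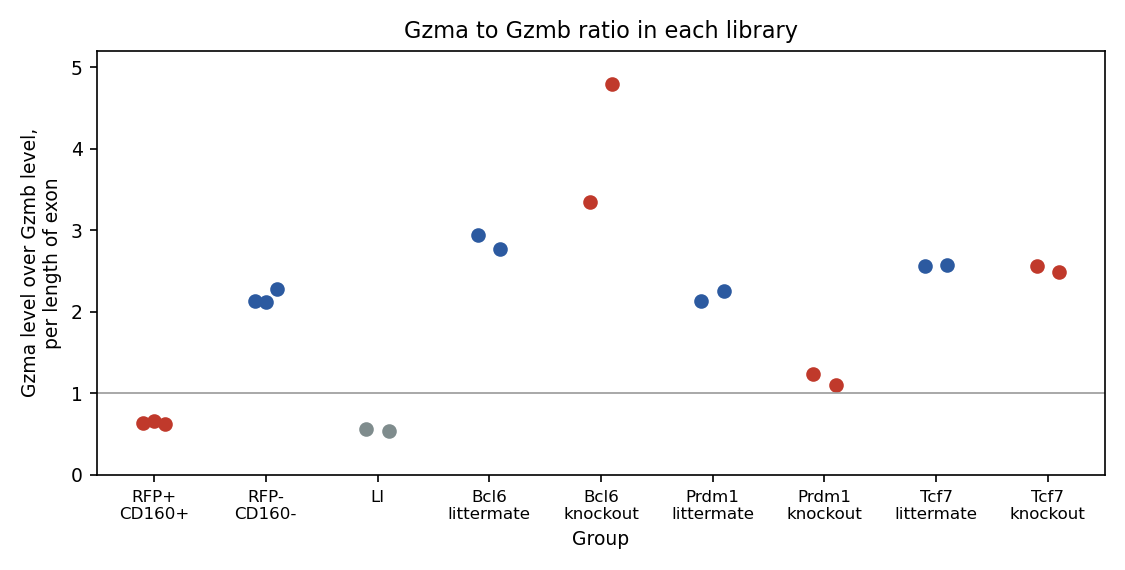
Ratio of the Gzma to the Gzmb level, each per length of exon, in every library; red points are RFP+CD160+ or knockout libraries, blue points RFP-CD160- or littermate libraries and grey points LI libraries, and the line marks a ratio of 1. RFP+CD160+ and LI libraries lie below 1, Prdm1 knockouts just above it and all others at or above 2.12.

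Within each population the order of levels per length was Gzma, Gzmb, Prf1, then the minor granzymes, except where Gzmb led. In RFP-CD160- cells the means were 14130 ± 1273, 6499 ± 704, 42.6 ± 3.56, 17.2 ± 4.17 (Gzmk), 12.2 ± 2.36 (Gzmc) and 1.43 ± 0.35 (Gzmm) FPKM (SD, n = 3). Gzmk and Gzmc were neighbours in that order whose ranges overlapped, though Gzmk was above Gzmc in each library. In RFP+CD160+ cells the means were 173 ± 81.8 (Gzmb), 110 ± 49.2 (Gzma), 4.31 ± 1.44 (Prf1), 1.89 ± 0.62 (Gzmc), 1.51 ± 0.57 (Gzmm) and 0.188 ± 0.087 (Gzmk) FPKM (SD, n = 3). There the ranges of Gzmb and Gzma overlapped, though Gzmb was above Gzma in each library. The ranges of Gzmc and Gzmm overlapped too, and their order differed between libraries. Gzmk stood above Gzmc in the first population and last in the second.

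The same orders were read in the knockout experiments. In Prdm1fl/fl littermates, in scaled reads per kilobase of exon, the mean levels were 270683 for Gzma, 123374 for Gzmb, 1439 for Prf1, 738 for Gzmk, 737 for Gzmc and 46.4 for Gzmm. In Prdm1 knockouts they were 11388 for Gzma, 9560 for Gzmb, 201 for Prf1, 65.4 for Gzmc, 45.3 for Gzmm and 31.5 for Gzmk. Gzmk was last there by its mean only, since its 2 values (49.6 and 13.5) lay on either side of those of Gzmm (45.3 and 45.2). In Tcf7fl/fl littermates they were 330804 for Gzma, 128934 for Gzmb, 1715 for Prf1, 705 for Gzmk and 649 for Gzmc, and in Tcf7 knockouts 473664, 187903, 1985, 887 and 1017 in that order of genes. With 2 libraries a group, neighbours in these orders were not tested against each other.

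Over the 18 labelled libraries, with log2 values centred within each experiment, Gzma correlated with Gzmb at r = 0.996, with Prf1 at 0.967, with Gzmk at 0.944, with Gzmc at 0.885 and with Gzmm at -0.065. These r values describe 18 points that share 4 experiments, controls and normalization. Among 8905 genes outside the set, those most like Gzma were Tmem273 (r = 0.994), Ccl5 (0.992), Gng2 (0.988), Gadd45g and Cdh23 (both 0.984), and these 5 were also most like Gzmb. Over the 12 knockout-experiment libraries alone, 0 of these 5 were among the first 5 for Gzma or for Gzmb. Ccl5 encodes a chemokine that T cells also keep in secretory granules. It was lower in RFP+CD160+ cells (log2 fold change -3.37) and in Prdm1 knockouts (-2.31) and higher in Tcf7 knockouts (0.34), each past the test. Most like Prf1 were Prdm1 (r = 0.993), Art2b (0.982), Htra3 and Ptpn7 (both 0.981) and Ube2l6 (0.980). Prdm1 was itself deleted in 2 of these libraries, and 2 of the 5 stayed among the first 5 over the 12. Nfkb1, which encodes an NF-κB subunit, was among the 3 genes most opposed to each of Gzma (r = -0.975), Gzmb (-0.971) and Prf1 (-0.968).

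The Gzma and Gzmk locus held other genes that moved with its granzymes. Cdc20b, 2.63 kb from Gzma, read 0.0365 to 0.0971 FPKM in RFP+CD160+ and 10.5 to 17.8 FPKM in RFP-CD160- cells (log2 fold change -3.69; limma adjusted p = 3.87e-06). Gpx8, which encodes a glutathione peroxidase of the endoplasmic reticulum and lies inside the Cdc20b span on the other strand, read 0 to 0.282 and 30.8 to 51.1 FPKM (-5.03; limma adjusted p = 1.39e-06). In Prdm1 knockouts Cdc20b (-4.74) and Gpx8 (-5.07) were lower, with limma adjusted p of 0.00850 and 0.0171. There they read 47.8 to 195 and 10.4 to 73.1 scaled reads. In both comparisons Cdc20b and Gpx8 passed the filter only through the group where they were high. They could thus be called only as lower. In Tcf7 knockouts Cdc20b (0.76) and Gpx8 (1.28) were higher, with limma adjusted p of 2.47e-05 and 7.32e-06. Their exons share 0 bases with each other or with Gzma, though whether reads were counted by strand is not given in the sources used here.

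Within 500 kb of Gzma, 4 of 7 tested neighbours were lower in RFP+CD160+ cells, 3 of 7 were lower in Prdm1 knockouts and 3 of 9 were higher in Tcf7 knockouts, where 21.6%, 2.54% and 1.49% of all genes tested were. The third in each knockout was Snx18, a sorting nexin gene 491 kb away and chosen after its values were seen, at -0.94 after Prdm1 loss and 0.23 after Tcf7 loss. The remaining one in the reporter comparison was Ccno (-0.87), and Snx18 was lower there too (-1.11). The reporter and Prdm1 counts include Cdc20b and Gpx8, which could be called only as lower there. Esm1, inside the Gzmk span on the other strand, was below the filter everywhere. It read 0 in RFP+CD160+ and 0.172 to 0.467 FPKM in RFP-CD160- libraries, 0 to 2.12 scaled reads in Prdm1 knockouts against 7.77 to 41.4 in littermates, and 48.3 to 55.7 in Tcf7 knockouts against 4.42 to 9.52. Esm1 and Gzmk exons share 0 bases.

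At the Gzmb locus, of the neighbours other than Gzmc, 0 of 8 passed limma's test in Prdm1 knockouts (1 at an unadjusted p under 0.05) and 0 of 12 in Tcf7 knockouts (0 unadjusted). On recovered reads edgeR and DESeq2 called 0 of these in both. In the reporter comparison 3 of 7 were lower, against 21.6% of all genes tested, and log2 fold changes over the 7 ran from -0.39 to 0.13. Rnf17, Mcpt2 and Mcpt1, the nearest neighbours of Gzmb that the reporter table lists apart from Gzmc, were below the filter in each table that lists them (Mcpt2 is not in the Bcl6 table). The Bcl6 and Tcf7 tables also list other genes that lie nearer. Around Gzmm, the neighbours Cdc34, Bsg and Tpgs1, all within 12.9 kb, passed in none of the 4 comparisons. Within 500 kb of Gzmm, 2 of 26 tested neighbours were higher and 2 lower in RFP+CD160+ cells, against 16.4% and 21.6% of all genes tested. After Prdm1 loss 1 of 28 was higher, against 4.29%. After Tcf7 loss 0 of 31 passed limma's test (4 at an unadjusted p under 0.05; edgeR 0, DESeq2 0), and after Bcl6 loss 0 of 27 (0 unadjusted). Around Prf1, 4 of 8 neighbours were lower in RFP+CD160+ cells, against 21.6% of all genes tested, with log2 fold changes down to -0.68, and 0 of 8 and 0 of 9 passed limma's test after Prdm1 and Tcf7 loss (1 and 1 unadjusted; edgeR 0 and 0; DESeq2 1 and 0).

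**Figure D5:**
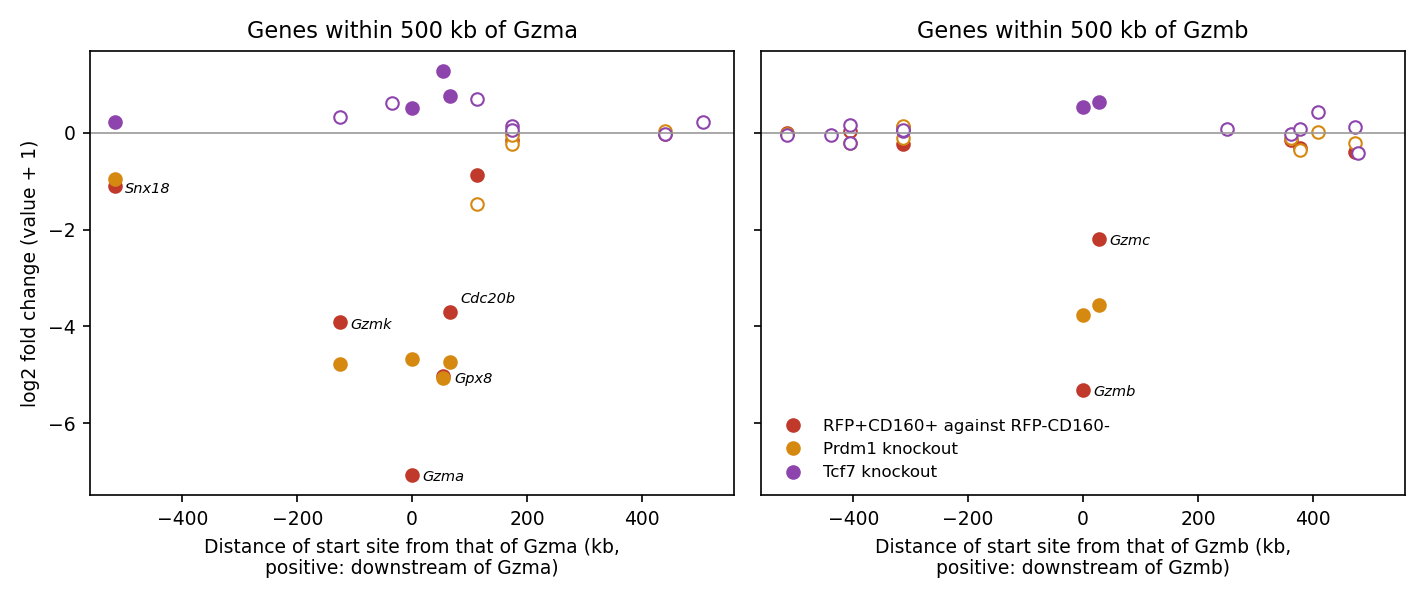
log2 fold change (value + 1) of the tested genes within 500 kb of Gzma (left) and Gzmb (right) against the distance between start sites in kb; red is RFP+CD160+ against RFP-CD160-, orange the Prdm1 and purple the Tcf7 knockout, and filled points have an adjusted p under 0.05. Around Gzma, Gpx8, Cdc20b and Gzmk lie low with Gzma in red and orange, while around Gzmb only Gzmc does.

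Other genes of the granule apparatus had log2 fold changes no lower than -1.65 in RFP+CD160+ cells, among those past the test. Of the genes for granule storage and granzyme processing, 5 of 12 tested were higher and 6 lower in RFP+CD160+ cells, with a median log2 fold change of -0.03. Over all genes tested there, 16.4% were higher and 21.6% lower, which are the shares to read for each list below. They were 4.29% and 2.54% after Prdm1 loss and 1.49% and 1.23% after Tcf7 loss. Nkg7, a granule membrane protein gene, was the furthest past the test (449 ± 17.5 against 924 ± 11.4 FPKM, SD, n = 3; log2 fold change -1.04). Srgn, encoding serglycin, the proteoglycan that packs granzymes, was lower (-0.61), and Igf2r, encoding a mannose 6-phosphate receptor that sorts granzymes to the granule, was higher (58.8 ± 1.74 against 46.7 ± 2.71 FPKM, SD, n = 3; 0.33). None of the 12 passed limma's test after Bcl6, Prdm1 or Tcf7 loss (3, 3 and 2 at an unadjusted p under 0.05). On recovered reads edgeR called 0 and DESeq2 2 after Prdm1 loss, and edgeR 0 and DESeq2 1 after Tcf7 loss.

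Of 15 tested genes of granule exocytosis, 8 were lower and 0 higher in RFP+CD160+ cells, with a median of -0.20. Sytl2, a Rab27 effector that docks granules, was at 5.04 ± 0.20 against 17.9 ± 0.26 FPKM (SD, n = 3; log2 fold change -1.65), and Rab27a (-0.63) and Stx11 (-0.64) were lower. After Prdm1 loss Sytl2 (-1.27) and Rab27a (-0.52) were the 2 of 15 that were lower. After Tcf7 loss Sytl2 was the 1 of 16 that was higher (0.26). None of 14 passed limma's test after Bcl6 loss (1 at an unadjusted p under 0.05).

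Serpinb9 is a known granzyme inhibitor, and the list holds its relatives, of which Serpina3g is better known as an inhibitor of cathepsins. All 4 tested were lower in RFP+CD160+ cells, among them Serpinb9, which inhibits granzyme B (18.3 ± 1.55 against 38.2 ± 6.43 FPKM, SD, n = 3; log2 fold change -1.01), Serpinb6b (-1.24) and Serpinb6a (-0.49). After Prdm1 loss Serpinb6b was lower (-0.78) and Serpinb1a higher (1.44), of 6 tested. After Tcf7 loss Serpina3g was higher (0.27).

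Other killing ligands did not follow the granzymes as a group. Fasl, the death receptor ligand gene, was lower in RFP+CD160+ cells (44.4 ± 9.78 against 112 ± 22.1 FPKM, SD, n = 3; log2 fold change -1.32) and in Prdm1 knockouts (-1.02), and higher in Tcf7 knockouts (0.30). Ltb, encoding lymphotoxin β, was higher in RFP+CD160+ cells (2.82) and lower after Tcf7 (-0.64) and Bcl6 (-1.01) loss. Tnfsf14 was higher in RFP+CD160+ cells (1.88) and lower after Tcf7 loss (-0.93). Tnf (2.57) and Lta (2.14) were higher after Prdm1 loss, where 4 of 7 tested genes of this list were higher and 1 lower.

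Of the regulators listed for these genes, 8 of 27 tested were higher and 9 lower in RFP+CD160+ cells. The 8 include Bcl6 (log2 fold change 1.86), on whose reporter the cells were sorted. Il2rb, the receptor chain that passes on interleukin-15 signals, was lower there (255 ± 30.01 against 851 ± 50.6 FPKM, SD, n = 3; log2 fold change -1.74) and after Prdm1 loss (-0.99), and higher after Tcf7 loss (0.41). Tcf7 (log2 fold change 5.33) was higher and Prdm1 (-3.76) lower in RFP+CD160+ cells. After Prdm1 loss 3 of 27 were higher, Tcf7 among them (1.73), and 2 lower, Il2rb and the deleted gene itself. After Tcf7 loss 2 of 28 were higher, Il2rb and Prdm1 (0.22; limma adjusted p = 0.0451). The 4 lower ones included the deleted gene itself (-0.98) and Bcl6 (-0.38). None of 24 passed limma's test after Bcl6 loss (3 at an unadjusted p under 0.05).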

How the data were processed

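RNA of sorted cells was sequenced as bulk RNA-seq. Tools listed in the submitters' processing notes, without role or order, are Bowtie2, DESeq2, featureCounts, RSEM, Subread and Trim Galore (0.4.4), with the mm10 build. The reporter, LI and Bcl6 tables were deposited as FPKM. The Prdm1 and Tcf7 tables were deposited as a signal per gene, reads divided by a size factor, under a column name that reads FPKM. All of their values were whole multiples of 1 read (tolerance 0.01), and 96.7 to 97.6% of FPKM values were (tolerance 0.02). The 6 genes and all gene lists were chosen with earlier results of these data known.

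Each experiment was fitted alone with limma 3.58.1 (R 4.3.3; lmFit, eBayes with trend, no covariates) on log2(value + 1), two-sided, with Benjamini-Hochberg adjustment over all genes tested and a threshold of 0.05. A gene was tested if its value reached 1 FPKM (50 for signal) in a number of libraries equal to the size of the smaller group. The fit was tested on simulated data. Named genes are the 6, up to 3 called members of each list, the 5 most and 3 least correlated genes, and the 3 nearest neighbours of each gene listed in the reporter table, other than the 6. Alternatives were other pseudocounts, filters and scalings, no trend, a replicate block, leaving out each library, and edgeR 4.0.16 and DESeq2 1.42.0 on recovered reads.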

Additional observations from a re-analysis of the deposited data

Results flagged for a closer look

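The effect of Prdm1 loss differed from that of Bcl6 loss by -5.13 for Gzma, -3.74 for Gzmb, -4.96 for Gzmk, -3.67 for Gzmc and -2.87 for Prf1 on the log2 scale, each by a limma test of the difference itself over 8 libraries. The effect of Prdm1 loss differed from that of Tcf7 loss by -5.20 for Gzma, -4.31 for Gzmb, -5.12 for Gzmk, -4.21 for Gzmc and -3.07 for Prf1 in the same kind of test. In the Prdm1 experiment Gzmk and Gzmc passed the filter only through the littermates. All 10 differences passed in each of the 12 alternatives run for them.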

How the results depend on the processing

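The 5 called genes of the reporter and the Prdm1 comparison, and their 10 differences of effects, kept direction and call in every alternative run. After Tcf7 loss, where 413 genes and 3 of the 6 passed, quantile normalization left 1 of the 6, because Gzma and Gzmb hold the top ranks of every library and so became equal by construction. Without the trend 9 genes and 0 of the 6 passed (adjusted p 0.173 for Gzma, 0.157 for Gzmb, 0.254 for Gzmc); the cause was not tested. Leaving out 1 library gave 218 to 748 genes and 2 to 5 of the 6, with 5 without littermate replicate 1.

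The labels give no shared source for libraries of the same replicate number, and the main fits did not pair them. Same-numbered deviations correlated at -0.231, 0 and -0.331 in the reporter comparison, -0.459 for Bcl6, 0.528 for Prdm1 and 0.064 for Tcf7. With 2 libraries a group, differently numbered libraries give the same value with its sign turned (-0.528 for Prdm1). These values therefore cannot decide whether libraries were paired. With the number as a replicate block, 78 genes (40 without it) passed after Bcl6 loss, 2386 (750) after Prdm1 loss and 977 (413) after Tcf7 loss, where 5 of the 6 passed. The blocked differences of effects gave 2249 genes (1027) for Prdm1 against Tcf7 and 8 (45) for Tcf7 against Bcl6.

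DESeq2 called 1184 genes after Prdm1 loss. Leaving out 1 library gave 40 to 1570 genes after Bcl6 loss (1570 without knockout replicate 1, 198 without knockout replicate 2), 595 to 1183 after Prdm1 loss, 142 to 855 for Prdm1 against Bcl6 (326), 463 to 1506 for Prdm1 against Tcf7, and 13 to 1497 for Tcf7 against Bcl6, with 0 to 2 of the 6 (2 without Bcl6 knockout replicate 1); the cause was not tested. Signs turned only for uncalled values. Leaving out 1 library, Gzmm ran from -0.12 to 0.22 in the reporter comparison, -0.12 to 0.0542 after Prdm1 loss, -0.10 to 0.54 after Tcf7 loss and -0.57 to 0.0706 for Prdm1 against Tcf7. After Bcl6 loss Gzmb ran from -0.24 to 0.18, Gzmc from -0.15 to 0.36 and Prf1 from -0.12 to 0.14, and Gzma for Tcf7 against Bcl6 from -0.031 to 0.15. After Bcl6 loss Prf1 was -0.0169 with quantile normalization and -0.0068 with equal totals. After Prdm1 loss Gzmm was 0.0246 with equal totals and 0.0024 in edgeR. Depth limited Gzmk in RFP+CD160+ libraries (3 to 6 reads) and Gzmm (15 to 132 reads in the knockout experiments).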
